A study of Mus musculus with 5 samples.

Results

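Genes were collected that stood lower in all 3 libraries with BMN than in both libraries without it, in Lewis lung carcinoma, a mouse lung cancer line known as LLC. BMN is BMN673, an inhibitor of the PARP enzymes that act at broken DNA, and PAZA is a polymer that carries 5-azacytidine, an inhibitor of DNA methyltransferases, and can itself be loaded with BMN. A symbol was a member where the lower of its Control and PAZA values was at least 1.5 times the highest of its BMN, BMN/PAZA low dose and BMN/PAZA high dose values, and at least 2. Values were FPKM, fragments per kilobase of transcript relative to all mapped fragments, and were rescaled here so that each library summed to 1000000 over the symbols shared by 3 deposited tables. Of 13979 shared symbols, 9538 had a value of at least 2 in both Control and PAZA, and 56 of them (0.587%) were members. The mirrored rule, which asks for higher values in every library with BMN, found 46 of 9376 symbols (0.491%). With columns scaled without their 100 highest genes, the counts were 76 for the rule and 85 for the mirrored rule. The members were chosen by these values, so their separation is a description, and with 1 library per group no difference was tested and no replicate error is known.

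The 5 groups were Control with no drug, PAZA alone, BMN alone, and BMN loaded in PAZA at a low and at a high dose, each a single library of total RNA. The labels name LLC cells treated in culture and a lung source, whereas the study's methods describe tumours grown under the skin of C57BL/6 mice, collected after the last dose and sequenced. The labels and the methods thus differ on the source, and how many tumours a library pooled is not given in the sources used here. Markers of other cells were present in every library. The summed level of 20 macrophage and monocyte markers ran from 1286 to 1942. Of 16 markers of lung epithelium, 7 were in the tables; Krt8 stood at 115 to 174 and Epcam at 0 to 3.3.

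Some of the member genes are known targets of interferon gamma. T cells and natural killer cells release this cytokine, and cells that sense it make guanylate-binding proteins and immunity-related GTPases, which attack the membranes around intracellular microbes, together with chemokines such as CXCL9 that draw activated T cells in. Cytotoxic lymphocytes kill through perforin, which opens the target's membrane, and granzymes, proteases that enter through it. Promoters of such inducible and cell-type-restricted genes are often poor in CpG, the dinucleotide that DNA methyltransferases methylate, whereas promoters of widely used genes are often rich in it.

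Promoters of the lymphocyte and interferon-inducible members were poor in CpG. The windows, from 250 bases before to 50 after the start of each gene on the RefSeq annotation of GRCm38.p6, were at hand for 35 of the 56 members. Their ratio of observed to expected CpG was under 0.4, a limit set for this work, in all 12 of the 20 lymphocyte and interferon-inducible members that had a window, in 5 of the 23 other members, and in 11.2% of the 7562 symbols with a window and a level of at least 2 in Control and PAZA. It was also under 0.4 in 48.6% of all 35 members with a window and in 50.9% of the 27025 symbols with a window at any level or none. The medians of that ratio were 0.17, 0.666 and 0.779 in those members, the other members and the symbols at level. The other members below the limit were the immune genes Tnfsf13, Slamf8 and Sema4a, and Pcyt1b and the pseudogene Zfp419. To show the contrast, the 150 bases upstream of the start are printed for a pair of interferon-inducible members, Ubd (chr17:37193742-37193891, plus strand, 0 CpG) and Cxcl9 (chr5:92328080-92328229, minus strand, 2 CpG), and for a pair of metabolic members, Uckl1 (chr2:181581983-181582132, minus strand, 9 CpG) and Inpp1 (chr1:52817689-52817838, minus strand, 11 CpG). They run 5′ to 3′ toward the gene, and capitals mark each CpG. Starts here are those of RefSeq, whereas gene spans given with the values are those of GENCODE M21, which begin farther upstream for Uckl1, Tgtp1 and Gzmf, so that their printed bases lie wholly or partly inside the span. Uckl1 has 2 RefSeq windows that overlap, of which the first listed is shown; where a gene had several, the CpG ratio is their mean.
Ubd: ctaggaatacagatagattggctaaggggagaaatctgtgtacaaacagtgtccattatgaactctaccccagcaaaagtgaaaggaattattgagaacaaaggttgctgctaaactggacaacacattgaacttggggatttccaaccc
Cxcl9: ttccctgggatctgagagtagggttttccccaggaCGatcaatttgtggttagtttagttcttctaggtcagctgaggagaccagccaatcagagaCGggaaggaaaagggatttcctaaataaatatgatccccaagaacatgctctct
Uckl1: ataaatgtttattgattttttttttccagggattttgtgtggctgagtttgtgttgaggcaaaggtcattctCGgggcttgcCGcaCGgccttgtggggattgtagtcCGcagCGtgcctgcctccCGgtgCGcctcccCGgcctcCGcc
Inpp1: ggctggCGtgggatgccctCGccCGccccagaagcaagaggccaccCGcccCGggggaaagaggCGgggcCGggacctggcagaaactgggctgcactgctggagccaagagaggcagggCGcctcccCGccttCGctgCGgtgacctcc

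Short motifs were searched on both strands of the same windows. TTCNNNGAA, the letters that STAT dimers bind, was in 5 of 35 member windows (14.3%) and in 8.24% of the windows of symbols at a level of at least 2. GAAANNGAA, part of the element bound by interferon regulatory factors and added after the data were seen, was in 5 of 35 (14.3%) and 9.19%. TGACGTCA, bound by CREB and ATF factors, was in 2 member windows, those of Gzmf and Gzmg, and in 3.94% of the symbols at level. The granzyme Gzmc, which was no member, also held it 57 bases before the start, whereas the perforin member Prf1 did not. TGACTCA, bound by AP-1, was in 6 of 35 member windows (17.1%) against 4.67%, and GGGCGG, bound by SP1, in 18 of 35 (51.4%) against 70.5%. The remaining motifs were CCAAT, found in 17 of 35 member windows against 43.6%, CAGGTG in 7 of 35 against 18.1%, CACGTG in 5 of 35 against 12%, TATAAA in 4 of 35 against 9.06%, and CCGGAAGT, GGAATTTCC and TGTTTAC, which no member window held and which were in 10.5%, 0.529% and 2.98% of the symbols at level. Over all 27025 symbols with a window, whatever their level, the shares were 9.55% for TTCNNNGAA, 9.76% for GAAANNGAA, 2.03% for TGACGTCA, 5.95% for TGACTCA, 38.2% for GGGCGG, 41.1% for CCAAT, 22.6% for CAGGTG, 8.09% for CACGTG, 15.7% for TATAAA, 4.31% for CCGGAAGT, 0.381% for GGAATTTCC and 4.05% for TGTTTAC. The members thus lay below the symbols at level and above all symbols for GGGCGG, and the reverse for TATAAA and CAGGTG. A match is a run of letters and no evidence of binding. The upstream bases of Tgtp1 (chr11:48992247-48992396, minus strand) held TTCNNNGAA 88 bases and GAAANNGAA 77 bases before the start, and those of Serpina3g (chr12:104235997-104236146, plus strand) held TTCNNNGAA 33 bases before it. Those of Gzmf (chr14:56211408-56211557) and Gzmg (chr14:56159580-56159729), both on the minus strand, held TGACGTCA 82 and 77 bases before it, and were identical at 137 positions of a global alignment of these 150 bases. Distances run to the first base of the match, and capitals mark the matches.
Tgtp1: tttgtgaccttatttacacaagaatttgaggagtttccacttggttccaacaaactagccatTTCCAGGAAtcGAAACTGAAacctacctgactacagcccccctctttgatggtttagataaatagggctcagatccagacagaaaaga
Serpina3g: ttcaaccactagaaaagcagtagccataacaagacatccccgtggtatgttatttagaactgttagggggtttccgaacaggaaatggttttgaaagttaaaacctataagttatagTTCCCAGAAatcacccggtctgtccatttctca
Gzmf: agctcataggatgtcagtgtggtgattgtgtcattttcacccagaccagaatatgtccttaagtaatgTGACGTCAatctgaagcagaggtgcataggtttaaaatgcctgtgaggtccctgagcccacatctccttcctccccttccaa
Gzmg: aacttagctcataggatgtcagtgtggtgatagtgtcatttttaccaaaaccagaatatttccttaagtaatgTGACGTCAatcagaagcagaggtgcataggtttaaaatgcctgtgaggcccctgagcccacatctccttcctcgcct

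Facts of the libraries bear on all values below. Control and PAZA came from one table, BMN and the high dose from another and the low dose from another still, and the first of these shares no library with the others, so levels between the sides rest on the scaling. BMN and the high dose had the same scale in both tables that hold them, whereas the low-dose and PAZA columns differed by a constant between tables. The median log2 shift from Control over the 11214 symbols with a mean of at least 1, on log2(scaled FPKM + 1), was -0.10 in PAZA, 0.09 in BMN, -0.08 in the low-dose and -0.22 in the high-dose library. Over the 56 members the same medians were -0.09, -1.17, -1.20 and -1.46. The summed level of 20 skeletal muscle markers was 29.8, 105, 292, 30.6 and 341 in Control, PAZA, BMN, low dose and high dose, that of 17 keratinocyte markers was 215, 111, 557, 116 and 127, that of 20 fibroblast and matrix markers 547, 814, 1404, 541 and 579.5, and that of 8 mast cell markers 25.7, 33.4, 104, 36.9 and 20.8. BMN was highest in the last 3 of these lists. The ribosomal RNAs of mitochondria and Rn7sk held 29.4% of the summed level in BMN, the lowest, and 38.1% in the high dose, the highest. These differ between libraries on both sides of the rule, and their part in the results was not tested. Gapdh, a glycolytic enzyme of every cell, was listed at 1.84 to 4.67, beside 376 to 577 for Ldha, so a low or zero value in these tables can be a failed estimate and is given here only as listed.

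**Figure D1:**
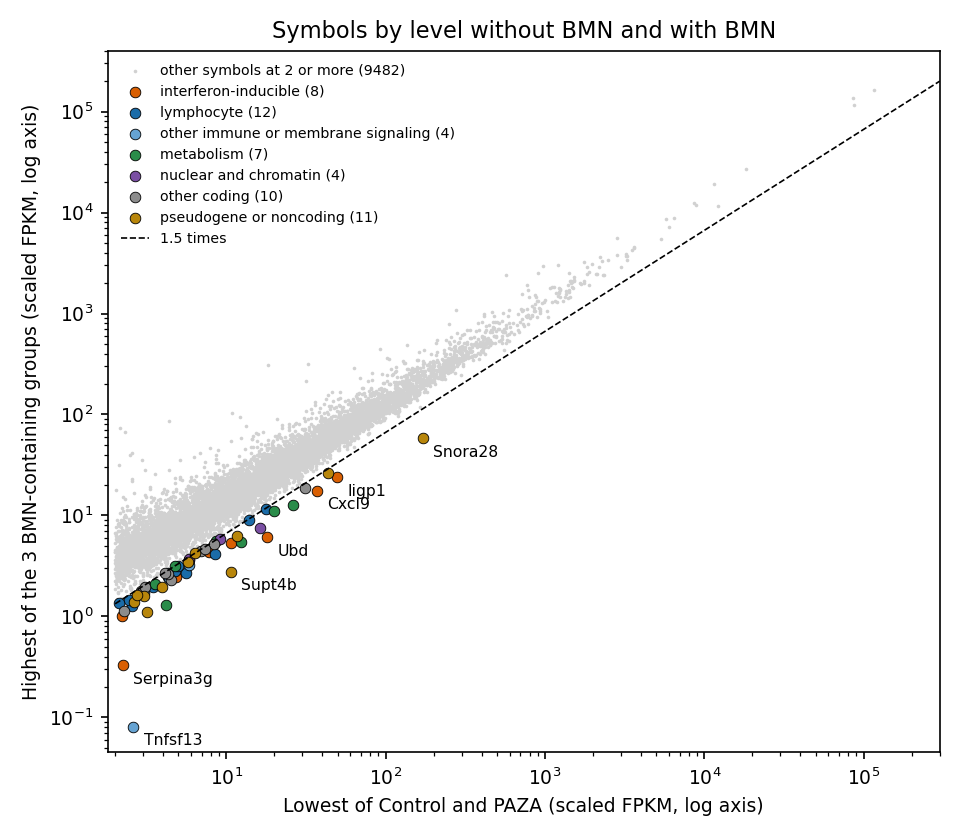
Each point is a symbol with at least 2 in Control and PAZA, with the lower of these values on the x axis and the highest of the 3 libraries with BMN on the y axis, both in scaled FPKM on log axes. The 56 coloured members lie on or below the dashed line at 1.5 times, most of them close to it, and Tnfsf13, Serpina3g, Supt4b, Pcyt1b and Snora28 lie farthest below.

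Most members lay near the limit. The ratio of the lower value without BMN to the highest value with BMN was at least 2 for 18 of the 56 members, and the lower value without BMN was under 5 for 28 and at least 20 for 6. Just inside the limit of 1.5 stood Kyat3 with a ratio of 1.51, Ska2l-ps with 1.51 and Clec2g with 1.53. Just outside stood Stat4, a transducer of interleukin-12 signals in T cells, with 1.497, Dpp7 with 1.495 and Harbi1 with 1.493. In Stat4 the values in Control, PAZA, BMN, low dose and high dose were 2.99, 4.16, 2.0, 1.23 and 1.79. Without any fold, both Control and PAZA stood above all 3 libraries with BMN for 735 of 11214 symbols with a mean of at least 1 (6.55%), and Control, whatever the PAZA value, did so for 2811 (25.1%).

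**Figure D2:**
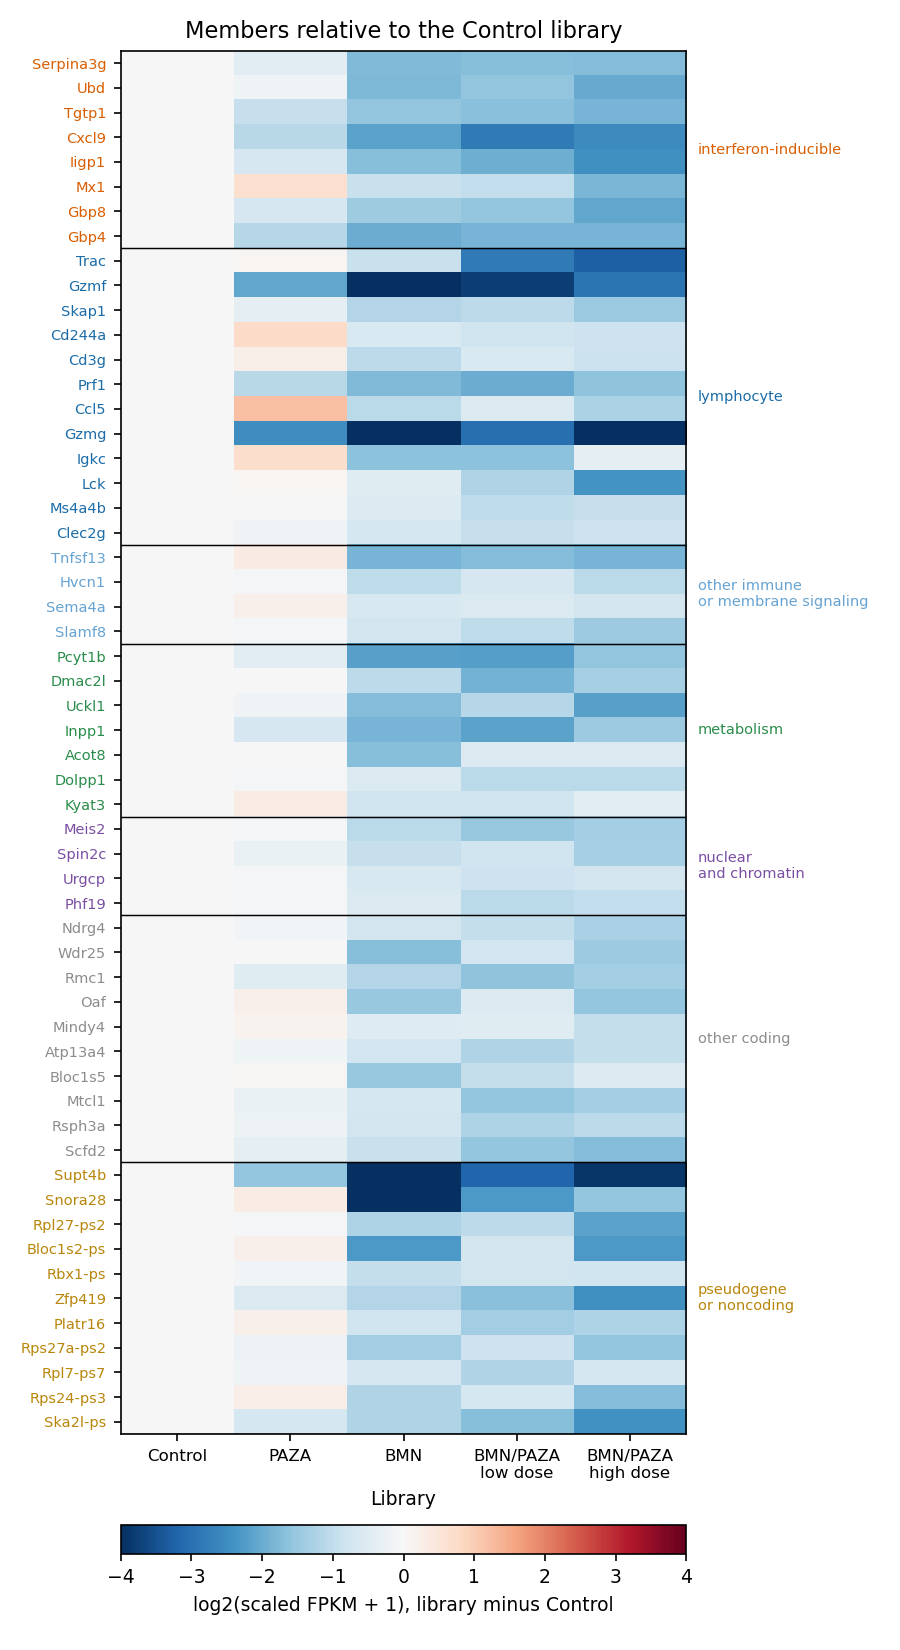
The 56 members are in rows by class and the 5 libraries in columns. Colour gives log2(scaled FPKM + 1) minus the Control value and is cut at 4 in either direction, which Gzmf, Gzmg, Supt4b and Snora28 pass; the 3 columns with BMN lie below Control in every row, whereas the PAZA column is mixed.

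Interferon-inducible genes, a class put together by hand from the members and so without a count of all such genes, held 8 members, and all 8 stayed members under median-ratio scaling. Ubd (chr17:37193892-37196095), which encodes the ubiquitin-like modifier FAT10, stood at 20.4 in Control, 18 in PAZA, 5.16 in BMN, 6.13 in the low-dose and 4.32 in the high-dose library. The lower value without BMN was 2.94 times the highest with it, and the 3 libraries with BMN lay close together. Serpina3g (chr12:104236245-104241939), an intracellular inhibitor of proteases, stood at 3.38 in Control, 2.23 in PAZA, 0.286 in BMN, 0.33 in the low-dose and 0.33 in the high-dose library, the second largest ratio of all members (6.74). Its level is low, so this ratio rests on values under 1. Iigp1, an immunity-related GTPase and the most abundant member that codes for protein by its lower value without BMN, stood at 80.5 in Control, 49.7 in PAZA, 23.8 in BMN, 19.8 in the low-dose and 13.8 in the high-dose library. Here PAZA lay between Control and the libraries with BMN. Tgtp1 (chr11:48985327-48994172), of the same GTPase family, stood at 5.04 in Control, 2.2 in PAZA, 1.02 in BMN, 0.885 in the low-dose and 0.677 in the high-dose library. Its near copy Tgtp2 lies beside it, so reads may be shared between them.

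A further 3 interferon-inducible members had values that differed between tables. The chemokine gene Cxcl9 (chr5:92321347-92328079) stood at 80.5 in Control, 36.8 in PAZA, 17.6 in BMN, 10.5 in the low-dose and 12.9 in the high-dose library. Mx1 (chr16:97447035-97462907), an antiviral GTPase, stood at 10.7 in Control, 17.3 in PAZA, 5.31 in BMN, 4.92 in the low-dose and 2.34 in the high-dose library, and was the one interferon-inducible member higher in PAZA than in Control. Gbp4 (chr5:105115767-105139586), a guanylate-binding protein, stood at 18.3 in Control, 7.82 in PAZA, 3.84 in BMN, 4.3 in the low-dose and 4.3 in the high-dose library. After the constant between tables was removed, the PAZA value in the table with Control was 3.68 times that in the table with the low dose for Cxcl9, 3.69 times for Mx1 and 1.9 times for Gbp4. The low-dose value used here was 0.50 times that in the table with BMN for each of the 3 genes. In the table that holds both libraries, Cxcl9 was listed at 5.84 FPKM in PAZA and 32.2 in the low dose, Mx1 at 2.74 and 15.2, and Gbp4 at 2.4 and 6.85, the opposite order to that above. None of the 3 was a member with those values. Without them, 5 interferon-inducible members remained.

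The guanylate-binding proteins and the immunity-related GTPases, families chosen after the values were seen, were highest in Control. Of the guanylate-binding proteins with a mean of at least 1, 8 of 8 stood highest in Control against all 3 libraries with BMN (25.1% of all symbols did), and 8 were at least 1.5 times lower in PAZA than in Control (19.2% of all symbols were). Gbp4 and Gbp6 had values that differed between tables, and Gbp2, the most abundant, did not. Gbp2 stood at 154 in Control, 63 in PAZA, 44.8 in BMN, 47.7 in the low-dose and 32.3 in the high-dose library, and Gbp7 at 42.2 in Control, 17.8 in PAZA, 18.2 in BMN, 16.9 in the low-dose and 13 in the high-dose library. In Gbp7 the PAZA library lay within the range of the libraries with BMN, so it was no member, and in Gbp5 PAZA likewise lay below BMN. The summed level of the family was 321, 142, 109, 115 and 80.6 in Control, PAZA, BMN, low dose and high dose. Of the immunity-related GTPases, 7 of 7 stood highest in Control, and the sums were 194, 107, 72, 62.9 and 49.2. Both counts held under median-ratio scaling and with the low-dose value of either other table. PAZA too stood above all 3 libraries with BMN for 5 guanylate-binding proteins, a count of 3 with the low-dose value from the table with BMN, and for 6 immunity-related GTPases, the exception being Tgtp2. Of all symbols, 6.55% had both Control and PAZA above. The 2 members in each family have this order by the rule itself. The relative of Mx1, Mx2, had another order, at 0.786 in Control, 1.2 in PAZA, 1.24 in BMN, 1.38 in the low-dose and 2.67 in the high-dose library, lowest in Control, in values that differ between tables. Gbp8 (chr5:105014150-105139540), a member at 8.27 in Control, 4.82 in PAZA, 2.47 in BMN, 2.08 in the low-dose and 1.18 in the high-dose library, spans the Gbp4 locus on the same strand and shares exons with Gbp4 and Gbp9, so its reads cannot be assigned with certainty.

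**Figure D3:**
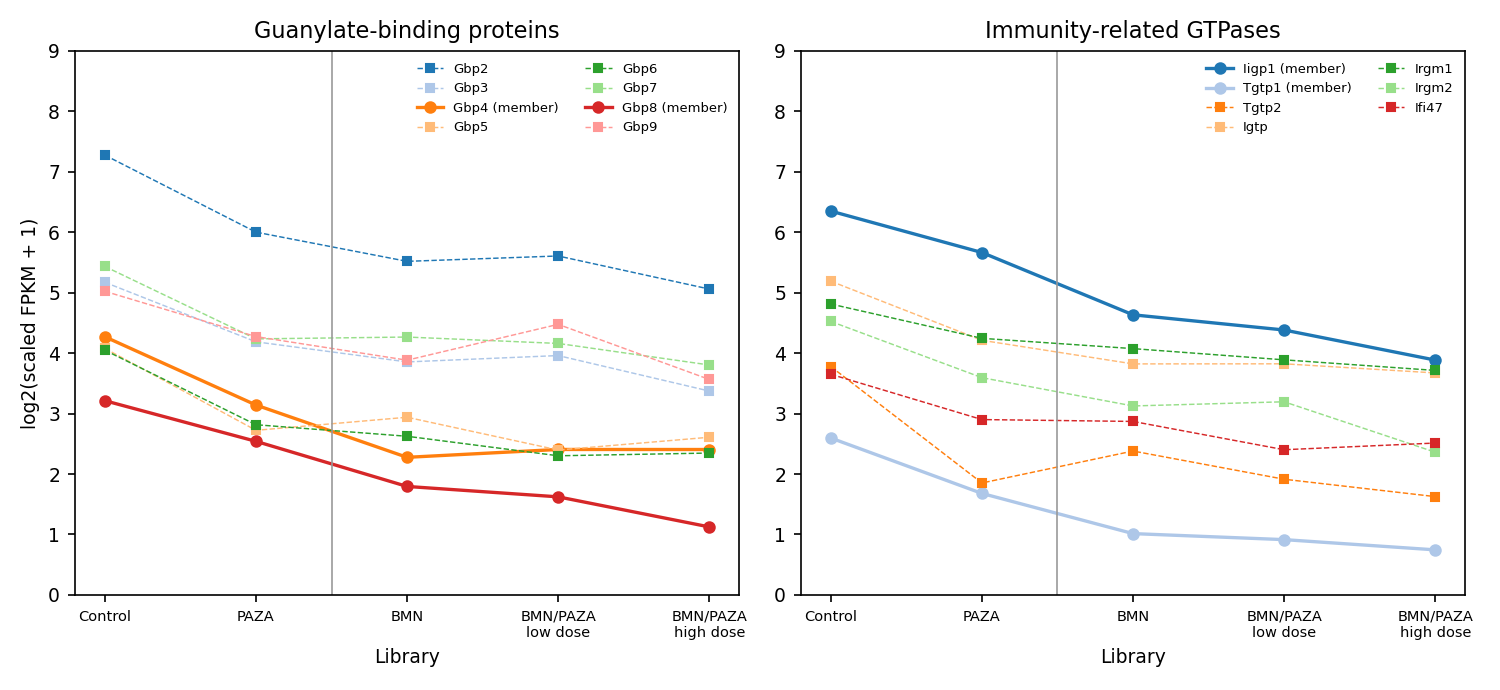
Log2(scaled FPKM + 1) of 8 guanylate-binding proteins (left) and 7 immunity-related GTPases (right) is drawn over the 5 libraries, with solid lines and circles for members, dashed lines and squares for the other genes, and a grey line between libraries without and with BMN. Every gene is highest in Control, and for several genes PAZA is level with the libraries with BMN. The values are those used by the rule.

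The wider interferon-stimulated genes were mixed, and many were highest in Control in the values used here. Of 30 interferon-stimulated genes listed for this work, 2 were members, Mx1 and Cxcl9, against 0.587% of the symbols at level. Neither was a member with the PAZA value from the table with the low dose. Both Control and PAZA stood above all 3 libraries with BMN for 7 of the 30, the 2 members among them, against 6.55% of all symbols. That count was 4 with the low-dose value from the table with BMN and 5 with the PAZA value from the table with the low dose. Control did so, whatever the PAZA value, for 23 of them, against 25.1%, a count of 9 with the low-dose value from the table with BMN. The antiviral gene Isg15 stood at 16.7 in Control, 13.8 in PAZA, 22 in BMN, 12.1 in the low-dose and 17.4 in the high-dose library, with the highest value in BMN. Ifit1 stood at 32.8 in Control, 17.5 in PAZA, 25.4 in BMN, 19.2 in the low-dose and 18.7 in the high-dose library. In it BMN lay above PAZA. Irf1, a transcription factor of the interferon gamma response, stood at 198 in Control, 79.1 in PAZA, 94.6 in BMN, 81.6 in the low-dose and 85.1 in the high-dose library. It was highest in Control, with PAZA below all 3 libraries with BMN. Interferon gamma itself was low, at 0.244, 0.946, 0.599, 0.501 and 0. Of 10 genes of its signalling pathway, chosen after the values were seen, 0 were members, against 0.587% of the symbols at level. Of the 7 with a mean of at least 1, 1 had both Control and PAZA above all 3 libraries with BMN, against 6.55% of all symbols. With the low-dose value from the table with BMN, 0 did. At these shares nothing is read from such counts. Cxcl10, a further chemokine of the CXCL9 receptor, stood at 28.3 in Control, 34.3 in PAZA, 22.9 in BMN, 15.8 in the low-dose and 20.7 in the high-dose library. Of the 30 genes, 25 had a value that differed between tables beyond the constant, against 2.67% of all shared symbols. Isg15, Ifit1, Cxcl10 and, outside the list, Irf1 were among such genes.

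Lymphocyte genes held 12 members. In bulk RNA, fewer cells of a type and less RNA per cell cannot be told apart in such values. Gzmf (chr14:56205263-56211417) and Gzmg (chr14:56156582-56159579), granzymes of one gene cluster whose upstream sequences are shown above, had the largest differences between Control and BMN among the lymphocyte members. Gzmg stood at 32.7 in Control, 4.97 in PAZA, 0 in BMN, 3.16 in the low-dose and 0.684 in the high-dose library, and Gzmf at 26.8 in Control, 5.56 in PAZA, 0.276 in BMN, 1.04 in the low-dose and 2.7 in the high-dose library. Control was far above all other libraries, and PAZA was nearer to the libraries with BMN than to Control. Their reads may be shared, since the genes are alike. Prf1 (chr10:61297833-61304680), perforin, stood at 6.47 in Control, 2.45 in PAZA, 1.17 in BMN, 0.906 in the low-dose and 1.45 in the high-dose library. Of 9 granzyme, perforin and serglycin genes, chosen after the values were seen, 8 stood above all 3 libraries with BMN in Control, against 25.1% of all symbols, and 8 were at least 1.5 times lower in PAZA than in Control, against 19.2%. Both Control and PAZA stood above all 3 libraries with BMN for 5 of the 9, against 6.55% of all symbols. Of these 5, 3 are members, which have this order by the rule itself. In Gzmc and Gzmd PAZA lay below both doses. Gzmb stood at 19.2 in Control, 8.54 in PAZA, 4.59 in BMN, 6.17 in the low-dose and 5.84 in the high-dose library, whereas Gzma, at 14 in Control, 4.75 in PAZA, 5.83 in BMN, 4.01 in the low-dose and 8.2 in the high-dose library, was lower in PAZA than in BMN; its values differed between tables. Srgn, the proteoglycan that packs granules in many leukocytes, was the gene not highest in Control, at 221 in Control, 362 in PAZA, 250.4 in BMN, 250.3 in the low-dose and 221 in the high-dose library.

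Genes of the T cell receptor formed the next group. Trac (chr14:54220521-54224206), the constant region of the receptor's alpha chain, stood at 8.53 in Control, 8.99 in PAZA, 4.12 in BMN, 0.339 in the low-dose and 0 in the high-dose library. Control and PAZA were alike, BMN was lower, and the libraries with PAZA and BMN together were close to 0. Cd3g (chr9:44969572-44980431), a signalling chain of the receptor, stood at 4.27 in Control, 5.18 in PAZA, 1.53 in BMN, 2.43 in the low-dose and 1.89 in the high-dose library. Lck (chr4:129548344-129573641), the kinase that starts signalling from it, stood at 4.21 in Control, 4.51 in PAZA, 2.71 in BMN, 1.28 in the low-dose and 0 in the high-dose library, and the adaptor Skap1 at 3.67 in Control, 2.54 in PAZA, 1.07 in BMN, 1.28 in the low-dose and 0.683 in the high-dose library. The partner chains did not all follow. Cd3e stood at 1.98 in Control, 2.32 in PAZA, 1.65 in BMN, 2.22 in the low-dose and 0 in the high-dose library, level in 4 libraries and listed at 0 in the high dose, and Cd3d was at 0, 1.19, 0.287, 0 and 0.176. Of the beta chain's constant regions, which share much of their sequence, Trbc2 was at 5.86, 5.15, 2.76, 4.45 and 0.96, with the members' order, and Trbc1 at 3.15, 0.863, 2.18, 0.456 and 0, without it. Of 12 genes of the receptor and its kinases with a mean of at least 1, chosen after the values were seen, 6 had both Control and PAZA above all 3 libraries with BMN, against 6.55% of all symbols, and 5 under median-ratio scaling. The 4 members among them have this order by the rule itself, so the count was in part fixed in advance. Of 16 T cell markers in the tables, 8 had a mean of at least 1, and 3 were members. Of the symbols with at least 2 in both Control and PAZA, which is another base, 0.587% were members. No marker of the 8 other than these 3 members had both Control and PAZA above all 3 libraries with BMN. The number listed at 0 was 1 in Control, 1 in PAZA, 0 in BMN, 1 in the low dose and 5 in the high dose, beside 747, 545, 618, 386 and 809 of all 13979 symbols. The summed T cell markers were 48.6, 45.6, 28.4, 26.1 and 12.1 in Control, PAZA, BMN, low dose and high dose, and Il7r, at 20.1, 9.49, 3.69, 9.92 and 4.28, made up a large share of the Control sum.

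Among the other lymphocyte members, Ccl5, a chemokine of activated T and natural killer cells, stood at 4.74 in Control, 12.1 in PAZA, 1.69 in BMN, 2.84 in the low-dose and 1.37 in the high-dose library, with PAZA 2.56 times Control. Its low-dose value was 0.286 times that in the table with BMN after the constant, and with that value it was no member. Cd244a, a receptor of natural killer cells, stood at 3.48 in Control, 6.56 in PAZA, 1.96 in BMN, 1.57 in the low-dose and 1.54 in the high-dose library. Ms4a4b, a membrane protein of T cells, stood at 13.8 in Control, 14 in PAZA, 9.03 in BMN, 6.31 in the low-dose and 6.87 in the high-dose library, and Clec2g, a lectin-like ligand of natural killer receptors, at 19.5 in Control, 17.7 in PAZA, 11.6 in BMN, 9.81 in the low-dose and 10.6 in the high-dose library. Both were close to the limit of the rule, and Clec2g was no member with columns scaled without their 100 highest genes. Igkc, the constant region of the kappa light chain, stood at 2.13 in Control, 4.04 in PAZA, 0 in BMN, 0 in the low-dose and 1.37 in the high-dose library. It was no member under median-ratio scaling. Other natural killer markers were mixed. Klra4, a receptor of the Ly49 family, stood at 19.8 in Control, 19.2 in PAZA, 10.2 in BMN, 16.9 in the low-dose and 16.3 in the high-dose library, with the members' order but a smaller difference. Klrd1, a chain of natural killer receptors, stood at 3.27 in Control, 6.31 in PAZA, 4.27 in BMN, 10.5 in the low-dose and 3.12 in the high-dose library, and Ncr1 at 2.15 in Control, 1.52 in PAZA, 2.25 in BMN, 1.41 in the low-dose and 1.18 in the high-dose library, without that order. Of 12 markers of natural killer and cytotoxic cells in the tables, 9 had a mean of at least 1 and 4 had both Control and PAZA above all 3 libraries with BMN, against 6.55% of all symbols. Among these 4 were 2 members, which have this order by the rule itself. Of 7 B and plasma cell markers, 3 had such a mean, with sums of 8.4, 7.7, 2.27, 2.87 and 6.34.

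**Figure D4:**
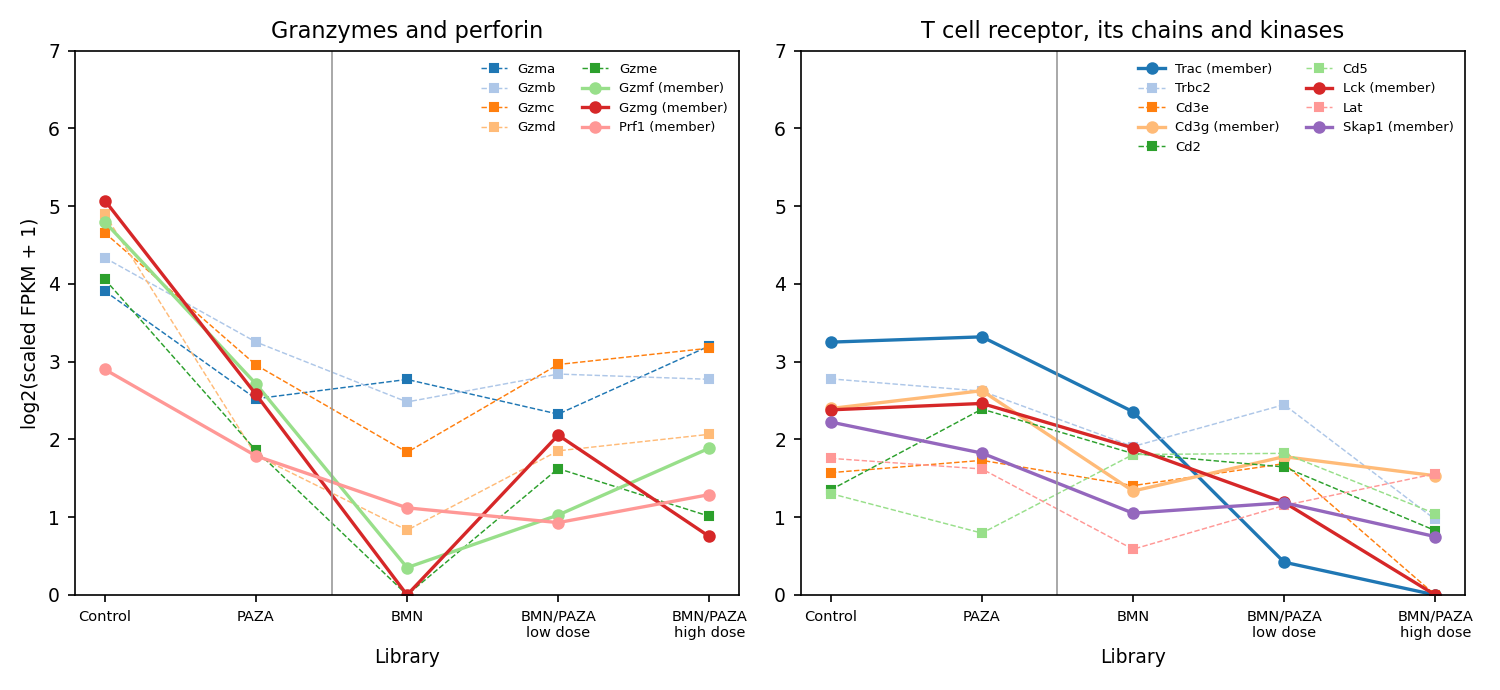
Log2(scaled FPKM + 1) of granzymes and perforin (left) and of T cell receptor genes (right) is drawn over the 5 libraries, with solid lines and circles for members and dashed lines and squares for other genes. On the left Control is highest for every gene, and on the right the members are lower in every library with BMN than in Control and PAZA, an order that Cd2, Cd3e and Cd5 do not share.

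Other immune and membrane genes held 4 members. Tnfsf13 (chr11:69682846-69685784), which encodes APRIL, a ligand for survival of plasma cells, had the largest ratio of all, 32, at 2.6 in Control, 3.56 in PAZA, 0.000461 in BMN, 0.0813 in the low-dose and 0 in the high-dose library. It was listed at 0 in the high dose, with almost nothing in BMN, and its exons overlap those of the joined Tnfsf12-Tnfsf13 gene. Its neighbour Tnfsf12 stood at 3.2 in Control, 2.33 in PAZA, 4.43 in BMN, 3.39 in the low-dose and 4.31 in the high-dose library, highest with BMN, and the related ligand Tnfsf13b at 4.29 in Control, 3.0 in PAZA, 3.29 in BMN, 7.46 in the low-dose and 0.966 in the high-dose library. Slamf8, a receptor of macrophages, stood at 6.02 in Control, 5.8 in PAZA, 3.25 in BMN, 2.5 in the low-dose and 1.57 in the high-dose library. In the same receptor family, Slamf7, at 16.5, 6.65, 5.79, 3.84 and 3.07, was highest in Control in values that differ between tables, and Ly9, at 11, 9.29, 13.3, 10.6 and 9.4, was highest in BMN. Hvcn1, a proton channel of phagocytes and B cells, stood at 4.45 in Control, 4.33 in PAZA, 1.7 in BMN, 2.4 in the low-dose and 1.56 in the high-dose library, and Sema4a, a semaphorin that acts on T cells, at 3.06 in Control, 3.65 in PAZA, 1.63 in BMN, 1.7 in the low-dose and 1.44 in the high-dose library.

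Metabolic genes held 7 members. Uckl1 (chr2:181569149-181584892), related to the uridine-cytidine kinases that activate azacytidine, stood at 28.7 in Control, 26.2 in PAZA, 7.89 in BMN, 12.6 in the low-dose and 5.55 in the high-dose library. The libraries without BMN were alike and the high dose was lowest. The kinases themselves did not follow, with Uck1 at 8.26, 6.16, 6.91, 9.44 and 4.13 and Uck2 at 101, 93.5, 119, 84.4 and 73.6 in Control, PAZA, BMN, low dose and high dose. Inpp1 (chr1:52785427-52817688), an inositol polyphosphate phosphatase, stood at 32.3 in Control, 19.9 in PAZA, 8.26 in BMN, 6.52 in the low-dose and 11.1 in the high-dose library. Pcyt1b (chrX:93654863-93749951), a form of the rate-limiting enzyme of phosphatidylcholine synthesis, stood at 5.95 in Control, 4.16 in PAZA, 0.532 in BMN, 0.498 in the low-dose and 1.3 in the high-dose library, with a ratio of 3.19, whereas its more abundant relative Pcyt1a stood at 27.7 in Control, 26.6 in PAZA, 37.6 in BMN, 18.9 in the low-dose and 19.8 in the high-dose library. Dmac2l (chr12:69724950-69744660), a mitochondrial protein linked to ATP synthase, stood at 12.3 in Control, 12.4 in PAZA, 5.4 in BMN, 2.57 in the low-dose and 4.27 in the high-dose library. The remaining 3 were Dolpp1 of the dolichol pathway with 8.62 and 8.99 without BMN against 3.73 to 5.64 with it, the peroxisomal thioesterase Acot8 with 3.56 and 3.59 without BMN against 0.421 to 2.1 with it, and the kynurenine aminotransferase Kyat3 with 4.72 and 5.98 without BMN against 2.27 to 3.14 with it. Acot8 and Kyat3 were no members under median-ratio scaling.

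Nuclear and chromatin genes held 4 members. Meis2 (chr2:115863064-116065839), a homeodomain transcription factor, stood at 17.1 in Control, 16.1 in PAZA, 7.53 in BMN, 5.39 in the low-dose and 6.05 in the high-dose library. The 3 libraries with BMN lay close together and below both others, with a ratio of 2.14. Its paralog Meis1 stood at 2.5, 1.22, 4.43, 3.05 and 3.09 and Meis3 at 3.99, 4.2, 2.54, 5.4 and 2.98, without that order. Phf19, an accessory protein of the PRC2 methyltransferase, stood at 6.07 in Control, 5.83 in PAZA, 3.73 in BMN, 2.34 in the low-dose and 2.61 in the high-dose library, and the catalytic subunit Ezh2 at 127 in Control, 99.2 in PAZA, 117 in BMN, 91 in the low-dose and 101 in the high-dose library. Spin2c, a spindlin, had 5.82 and 7.12 without BMN against 2.23 to 3.65 with it, and Urgcp had 9.15 and 9.76 without BMN against 5.02 to 5.83 with it. Urgcp was no member with columns scaled without their 100 highest genes.

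The 10 other coding members had low levels, with medians of 5.16 in Control and 1.03 in the high dose, except for Rmc1. Rmc1, a partner of the MON1-CCZ1 complex of late endosomes, stood at 43.7 in Control, 31.2 in PAZA, 18.8 in BMN, 13.5 in the low-dose and 16.3 in the high-dose library, and overlaps an exon of Npc1 on the opposite strand. Atp13a4, a P5-type ATPase, had 8.35 and 9.46 without BMN against 3.5 to 5.17 with it, and Rsph3a, a radial spoke protein of cilia, had 7.3 and 8.54 without BMN against 3.07 to 4.68 with it. Bloc1s5, a subunit of the BLOC-1 complex that sorts cargo to lysosome-related organelles, stood at 6.96 in Control, 7.21 in PAZA, 1.8 in BMN, 3.09 in the low-dose and 4.42 in the high-dose library; its partner Bloc1s6 stood at 70.2 in Control, 51.8 in PAZA, 64.5 in BMN, 39.4 in the low-dose and 32.4 in the high-dose library, and Bloc1s5 was no member under median-ratio scaling. Scfd2 had 4.13 and 5.78 without BMN against 1.02 to 2.68 with it, Wdr25 4.49 and 4.55 without BMN against 0.699 to 2.29 with it, Oaf 4.29 and 5.09 without BMN against 0.801 to 2.64 with it and the microtubule protein Mtcl1 3.06 and 3.83 without BMN against 0.64 to 1.96 with it. Mindy4, a deubiquitinase, had 2.89 and 3.29 without BMN against 1.0 to 1.79 with it, and Ndrg4 had 2.26 and 2.5 without BMN against 0.42 to 1.12 with it.

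Pseudogenes and noncoding genes were a larger share of the members than of the symbols at level. By GENCODE M21, 9 of 56 members (16.1%) were pseudogenes, 8 of them processed copies of a spliced messenger, against 154 of 9538 (1.61%), and 43 (76.8%) coded for protein, against 97.2%. Supt4b (chr10:31413815-31414165), a processed copy of the elongation factor gene Supt4a, stood at 33.2 in Control, 10.7 in PAZA, 1.1 in BMN, 2.78 in the low-dose and 1.31 in the high-dose library, with the third largest ratio (3.83). Supt4a stood at 59.6 in Control, 71.6 in PAZA, 60.0 in BMN, 91.2 in the low-dose and 61.8 in the high-dose library, highest in the low dose. Rps24-ps3 (chrX:79195047-79195448) stood at 43.6 in Control, 52.2 in PAZA, 18.2 in BMN, 26.3 in the low-dose and 12.5 in the high-dose library and its ribosomal protein gene Rps24 at 3261 in Control, 3305 in PAZA, 2489 in BMN, 3392 in the low-dose and 2603 in the high-dose library. Over all 8 processed copies, the related gene had a ratio of 0.403 to 1.03, all under the limit of 1.5. Reads of a processed copy can come from its related gene, so these members are uncertain.

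Snora28 (chr12:111540941-111541067), a small nucleolar RNA that guides pseudouridylation, was the member with the highest level, at 170.3 in Control, 208 in PAZA, 9.38 in BMN, 33.6 in the low-dose and 57.9 in the high-dose library. It lies within Eif5 on the same strand, and Eif5 stood at 434 in Control, 359 in PAZA, 498 in BMN, 284 in the low-dose and 308 in the high-dose library, highest in BMN where Snora28 was lowest. At 127 bases it is short, and FPKM of so short a transcript is imprecise. The remaining copies were Rpl27-ps2 with 3.18 and 3.4 without BMN against 0 to 1.11 with it, Bloc1s2-ps with 3.95 and 4.64 without BMN against 0 to 1.95 with it, Rbx1-ps with 3.06 and 3.34 without BMN against 1.26 to 1.59 with it, Rps27a-ps2 with 5.73 and 6.94 without BMN against 1.65 to 3.45 with it, Rpl7-ps7 with 2.73 and 3.24 without BMN against 0.823 to 1.64 with it and Ska2l-ps with 6.35 and 11 without BMN against 1.26 to 4.21 with it. Zfp419, an unprocessed pseudogene, had 2.63 and 4.43 without BMN against 0 to 1.38 with it, and the long noncoding RNA Platr16 had 11.6 and 13.6 without BMN against 3.79 to 6.27 with it.

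**Figure D5:**
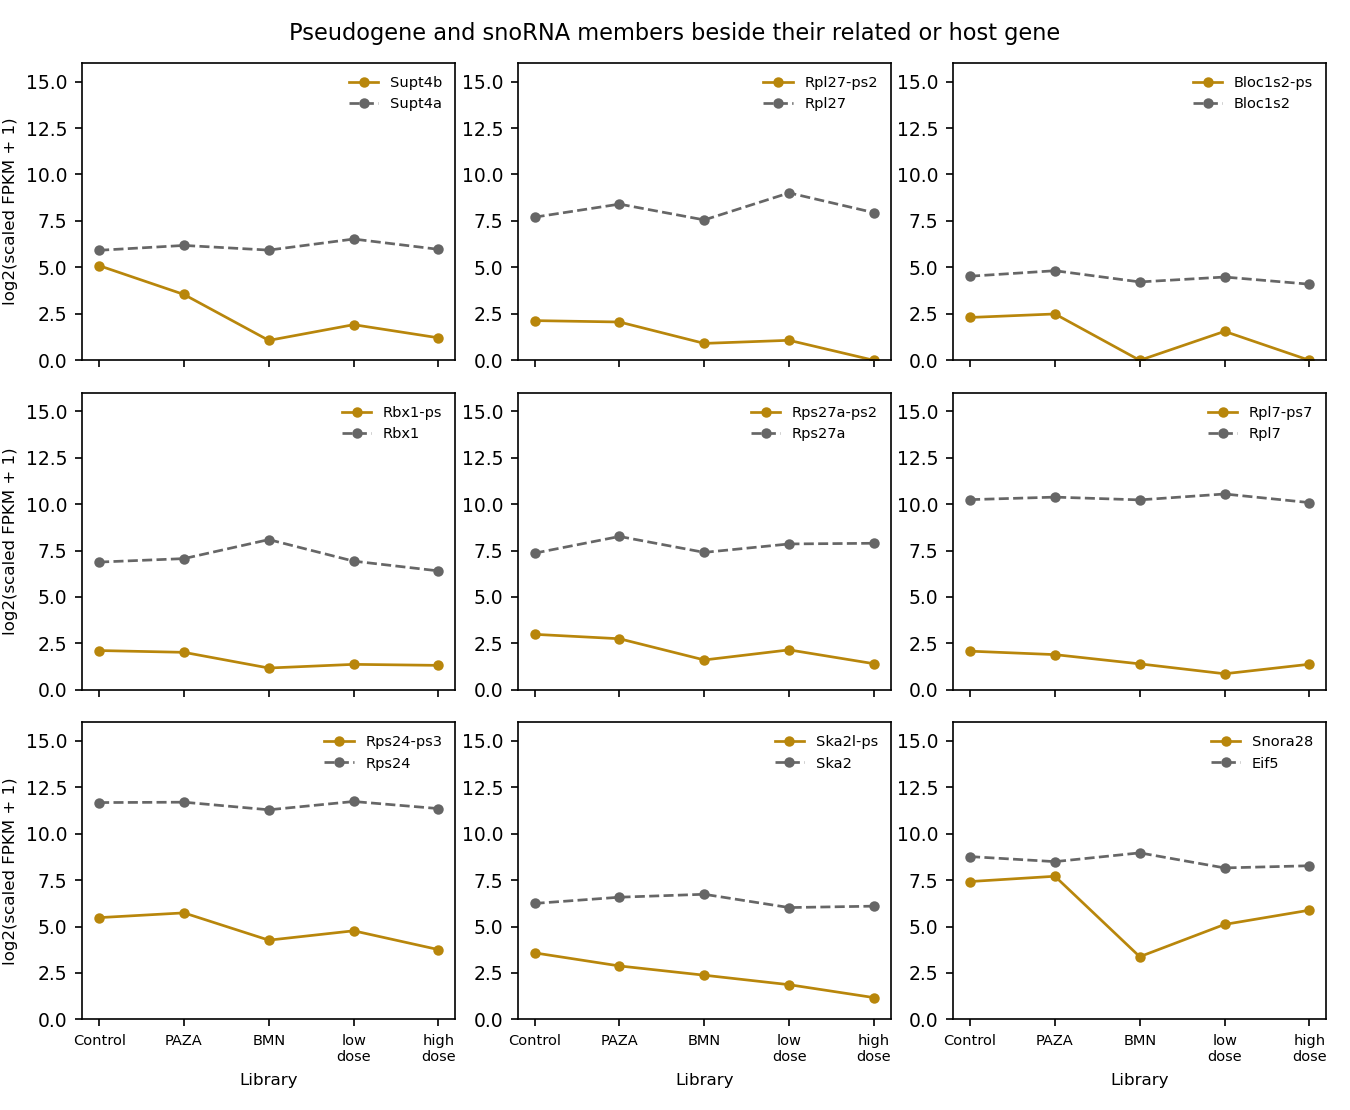
Each panel draws log2(scaled FPKM + 1) over the 5 libraries for 1 pseudogene or snoRNA member (gold) and its related or host gene (grey). The gold lines step down between PAZA and BMN, and the grey lines, which lie higher, show no common step.

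Among libraries on the same side, the members varied about as all symbols did in some contrasts and not in others. PAZA was at least 1.5 times lower than Control in 13 of the 56 members (23.2%), against 19.2% of all symbols, and higher in 4 (7.14%), against 13.7%. Of the 13, 6 were interferon-inducible genes, which is 6 of that class's 8. The low dose was at least 1.5 times lower than BMN in 13 members (23.2%), against 24.0%, and higher in 14 (25.0%), against 11.9%. The high dose was lower than BMN in 17 (30.4%), against 31.1%, and higher in 7 (12.5%), against 8.03%. It was lower than the low dose in 23 (41.1%), against 16.4%, and higher in 8 (14.3%), against 8.60%. The median difference between high and low dose, on log2(scaled FPKM + 1), was -0.13 in the members and -0.13 in all symbols. The members' median level, the mean of the 5 libraries, was 4.04, against 18 for the symbols at level. BMN was the highest of the 3 libraries with BMN for 26 members, the low dose for 22 and the high dose for 8. At least 1 library with BMN was listed at 0 for 8 members, 6 of them in the high dose. Over all 13979 symbols, 618 were listed at 0 in BMN, 386 in the low dose and 809 in the high dose. Which library was highest was not counted over all symbols, so nothing is read about the members from these counts.

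The table that holds PAZA and the low dose together compares the sides without scaling across tables. In it, as deposited, PAZA was at least 1.5 times the low dose for 53 of the 56 members (94.6%) and for 11.9% of the 11684 symbols with a mean of at least 1. The exceptions were Cxcl9, Mx1 and Gbp4. The rule already asks for this fold in the same libraries, so the members' share was largely fixed by their choice. It is no independent measurement. Over all tables, 5 of 56 members had a value off the constant between tables by more than 0.5% (8.93%), the 4 named above and Tnfsf13, whose values differed by about 1%, against 373 of 13979 symbols (2.67%).

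The members lay on 19 chromosomes, with 6 each on chromosomes 2, 5 and 11, which held 753, 609 and 778 of the symbols at level, and 6 adjacent pairs lay less than 2000000 bases apart. Gzmg and Gzmf were 45684 bases apart, Gbp8 and Gbp4 overlapped, and Cd244a and Slamf8, of one receptor family, were 972012 bases apart on chromosome 1. The joined exon length had a median of 3048 bases in the members and 4518 in the symbols at level. By class that median was lowest in the pseudogenes and noncoding genes and highest, at 5538 bases, in the other coding genes. Of 44 gene lists, 1 of which had no symbol in the tables, 4 held a member, with 8 members among them; since 0.587% of the symbols at level were members, nothing is read from the lists that held none.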

How the data were processed

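RNA of 5 libraries, 1 per group, was sequenced for the study. The submitters' processing notes name HISAT2, StringTie and build GRCm38, with versions not given in the sources used here. The authors deposited 5 tables, each pairing 2 libraries, whose values were read as FPKM per gene symbol. Depth is unknown, and 1 library per group allowed no test. Low-dose values in the table with both doses stood 3.26 and 3.41 times above those in its other tables, which scaling removed. Up to 24 symbols per table had been turned into numbers and matched no gene.

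The row with the highest mean was kept per symbol, and each column was scaled over the 13979 shared symbols. Differences are on log2(scaled FPKM + 1). Members, lists, classes and families were chosen with earlier results of these data known. Named genes were the 15 members with the largest ratio, the 10 with the highest level without BMN, members in a list, and 3 on either side of the limit; the other members complete the classes, and genes that are no members were named for their family or list after their values were seen. Gene models were GENCODE M21. Steps ran in Python 3.11.15 with pandas 2.3.3. The code of the rule was run on simulated data whose differences were large and whose noise was small. That checks the code and not the members. Alternatives changed the table, scaling, fold, level, repeated symbols and libraries used.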

Additional observations from a re-analysis of the deposited data

Results flagged for a closer look

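In 3 members the PAZA library differed from Control in the opposite direction to that in which the low-dose combination differed from BMN, each by at least 1.5 times; with 1 library per group the difference was not tested. The PAZA value was 0.321 times the Control value for Supt4b, 0.208 times for Gzmf and 0.152 times for Gzmg. The low-dose value was 2.52 times the BMN value for Supt4b and 3.77 times for Gzmf, and for Gzmg it was 3.16 against 0 listed in BMN.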

How the results depend on the processing

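No paired analysis was possible because each group has 1 library. Depth is unknown, which limits every weakly expressed member. The count of 56 was within 1.5 times under 9 of 18 alternatives, from 51 to 82. It moved to 4 with values as deposited, where the low-dose column stands above its other tables by construction, to 18 with a fold of 2, 28 with a level of 5, 120 with no level and 35 with 1 added to each value. Asking less, the rule gave 265 without Control, 338 without PAZA, 188 without BMN and 119 without the low dose. Median-ratio scaling gave 62, of which 52 were among the 56. Under 6 settings of table, scaling and repeated symbols, 46 of the 56 stayed throughout, 9 lymphocyte and 5 interferon-inducible genes among them. With PAZA and low dose from the table that holds both, chosen after seeing the data, 52 members were found. The members' median log2 difference ranged over its alternatives from -1.40 to -1.17 for BMN against Control, -0.11 to -0.00 for PAZA against Control, -1.31 to -1.02 for the low dose against PAZA and -0.29 to -0.03 for the high dose against the low dose.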

Other observations

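Genes whose value for 1 library differed between deposited tables, beyond the constant that links those tables, were not spread evenly over the gene lists. They made up 25 of 30 interferon-stimulated genes, 13 of 29 genes of base excision, mismatch and nucleotide excision repair, 10 of 19 inflammatory genes, 5 of 21 p53 targets, 3 of 9 natural killer and cytotoxic markers and 0 of 8 T cell markers, each with a mean of at least 1, against 2.67% of all shared symbols. Among members, the low-dose ratio between the table with both doses and the table with BMN was 0.50 for Cxcl9, Mx1 and Gbp4 and 0.286 for Ccl5. The cause was not tested.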
